A study of Mus musculus with 6 samples.

Results

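Messenger RNA levels of 10 genes that put peptides on the cell surface with MHC class I were compared between leukaemia cells without and with the microRNA miR-182. The genes were H2-K1, H2-D1, H2-T23, B2m, Tap1, Tap2, Tapbp, Psmb8, Psmb9 and Nlrc5, taken by symbol from the deposited counts, and all 10 of them stood among the 55487 genes listed. The KO group comprised miR-182 knockout libraries 2, 3 and 4, and the WT group comprised miR-182 wild-type libraries 1, 3 and 4. Per the labels, all 6 libraries came from bone marrow cells sorted as GFP+ B220+ from mice transplanted at 6 to 8 weeks of age, with the time given as day 0 for each. The series describes B-lineage leukaemia induced with BCR-ABL (P190) and T-lineage leukaemia induced with Notch, and the same B220 sort is given for both genotypes here. The text of that sort names 182WT and 182NC cells and not the knockout, so the genotype was taken from each library's own label. B220 is a form of CD45 carried by B-lineage cells. The labels give neither the strain of the mice nor whether a library number stands for 1 mouse, a donor or a batch, so p-values measure the spread between these libraries, which may be partly technical.

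MHC class I molecules show fragments of the proteins made inside a cell to CD8+ T cells. Peptides are cut by the proteasome, carried into the endoplasmic reticulum by the TAP transporter, loaded onto a heavy chain with the help of tapasin, and held there by the light chain beta-2 microglobulin. NLRC5 is a transcriptional coactivator of class I genes that works through DNA-bound RFX, NF-Y and CREB/ATF factors, and interferon gamma induces the pathway, in part through the transcription factor IRF1. Nearly all nucleated cells carry class I molecules, B cells and myeloid cells among them.

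Total counts were 20527487 to 29237035 in the KO libraries and 17704382 to 23311040 in the WT libraries. The sum of 10 B-lineage markers was 6295 to 7221 CPM in KO and 6310 to 6822 CPM in WT, where CPM is counts scaled to a library total of 1000000 after TMM normalisation. Neutrophil markers and most monocyte and macrophage markers were lower in KO, while the dendritic cell and erythroid lists gave few or no calls. The sum of 17 neutrophil markers was 1397, 3304 and 7021 CPM in KO libraries 2, 3 and 4, against 41228, 16900.3 and 29687 CPM in WT libraries 1, 3 and 4, and all 17 passed as lower in KO. The sum of 16 monocyte and macrophage markers was 337 to 748 CPM in KO and 1595 to 4827 CPM in WT, with 13 lower and 3 not passed. NK cell markers summed to 4.25 to 6.42 CPM in KO and 48.2 to 91.7 CPM in WT, and T cell markers to 115 to 151 CPM in KO and 161 to 221 CPM in WT. Dendritic cell markers summed to 179 to 184 CPM in KO and 105 to 180.4 CPM in WT, and erythroid markers to 96.5 to 123 CPM in KO and 24.9 to 241 CPM in WT. Klrb1c alone made up most of the NK cell sum in WT. It had 1.77, 2.66 and 1.37 CPM in KO libraries 2, 3 and 4, against 56.8, 43.2 and 47.8 CPM in WT libraries 1, 3 and 4. Cd2 and Lck made up most of the T cell sum: Cd2 had 134, 124 and 102 CPM in KO, against 139, 103 and 107 CPM in WT, and did not pass, and Lck had 9.24 to 13.7 CPM in KO, against 44.0 to 105 CPM in WT. The T cell receptor gene Trac had 0.191, 0.284 and 0.261 CPM in KO, against 4.43, 1.01 and 1.60 CPM in WT. Of these markers, 2 of 4 tested for NK cells were lower in KO (7 without WT library 3), 5 of 7 for T cells (3 without KO library 2 or 4, 2 without KO library 3 and 9 without WT library 3) and 1 of 8 for dendritic cells (0 without KO library 2, 3 or 4 or WT library 4, and 5 without WT library 3), with 1 dendritic cell marker higher. The 5 erythroid markers tested did not pass, and 5 passed as higher without WT library 1. Each fit without a library applied the filter on low counts again, so the number of markers tested there can differ from the one given. Without WT library 3, 14819 genes were tested in place of 14481. With all 6 libraries, 28.5% of all genes tested were called lower and 23.9% higher. No marker of these lists was at 0 in all 6 libraries. The immunoglobulin heavy-chain V segment with most counts was Ighv2-5 in all 3 KO libraries, Ighv5-16 in WT library 1 and Ighv8-7 in WT libraries 3 and 4. It held 25.7%, 30.3% and 34.5% of the V segment counts in KO libraries 2, 3 and 4, and 20.6%, 29.7% and 24.6% in WT libraries 1, 3 and 4. Whether libraries with the same leading segment came from 1 leukaemia was not tested, so n = 3 may not stand for 3 independent leukaemias.

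Of the 10 presentation genes, 8 were lower in the KO libraries and 0 were higher. Tap2 and Psmb8 did not pass. At an unadjusted p below 0.05 there were 9 lower and 0 higher, and DESeq2 and limma also called 0 of the 10 higher. The test was edgeR's quasi-likelihood F test, adjusted by the Benjamini-Hochberg method over 14481 genes, at a threshold of 0.05, and it gave each gene's adjusted p below except where DESeq2 or the authors' table is named. Values in brackets after a gene are its log2 fold change, the standard error (SE) and the adjusted p. Lower calls were made for 28.5% of all genes tested in this comparison. Of the 10, 7 passed and were at least 2-fold lower, against 14.6% of all genes tested. In 9 of the 10, every KO library lay below every WT library, against 33.2% of all genes tested, and in 0 of the 10 did every KO library lie above every WT library, against 30.8%. The median log2 fold change (KO over WT) of the 10 genes was -1.30, beside -0.0015 over all genes tested. In these bulk libraries, fewer cells of a type and less RNA per cell cannot be told apart.

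**Figure D1:**
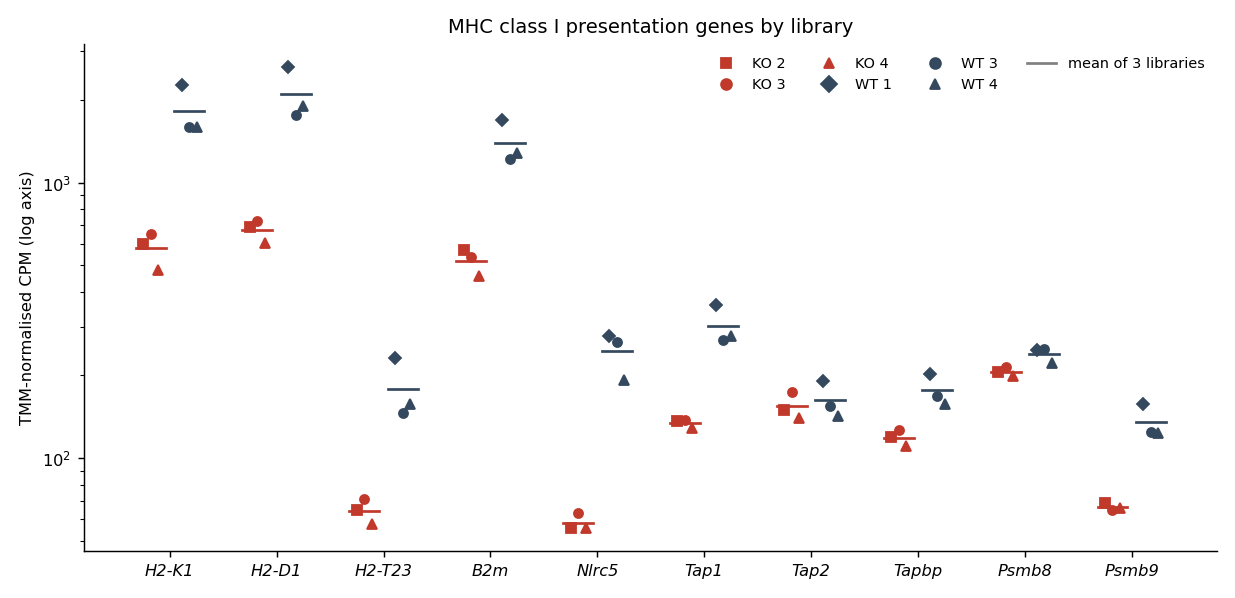
TMM-normalised CPM of the 10 presentation genes on a log axis, with 1 symbol per library (KO red, WT dark blue) and a bar at the mean of 3 libraries. The KO symbols lie below all WT symbols in 9 of the 10 genes, and the symbols of Tap2 intermix.

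The classical heavy chains and the light chain had the highest counts. H2-K1, the K heavy chain (ENSMUSG00000061232, chromosome 17 from 33996017 to 34000347, minus strand, GRCm38), had 601, 648 and 480.3 CPM in KO libraries 2, 3 and 4, against 2264, 1596 and 1589 CPM in WT libraries 1, 3 and 4. Its means were 576 ± 86.6 CPM in KO and 1816 ± 388 CPM in WT (SD, n = 3 each), and the log2 fold change, KO over WT, was -1.66 (SE 0.18, adjusted p = 0.000681). Every KO library was below every WT library, with KO library 4 the lowest and WT library 1 the highest of the 6. H2-D1, the D heavy chain (ENSMUSG00000073411, chromosome 17 from 35262730 to 35267499, plus strand), had 689, 725 and 605 CPM in KO libraries 2, 3 and 4, against 2625, 1762 and 1893 CPM in WT libraries 1, 3 and 4. Its fold change was close to that of H2-K1 (-1.64, SE 0.17, adjusted p = 0.000543), and the same libraries were lowest and highest. The ratio of H2-K1 to H2-D1 counts was 0.852 in KO and 0.869 in WT, and its log2 difference of -0.03 was within the spread between libraries (exact two-sided permutation p = 0.7).

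H2-T23 encodes Qa-1, a non-classical heavy chain that presents leader peptides of other class I chains to CD94/NKG2A receptors (ENSMUSG00000067212, chromosome 17 from 36029773 to 36032855, minus strand). It had 64.7, 71.3 and 57.5 CPM in KO libraries 2, 3 and 4, against 230.2, 145 and 158 CPM in WT libraries 1, 3 and 4. The groups did not overlap, and H2-T23 was lower in KO (-1.46, SE 0.18, adjusted p = 0.00112). B2m, the light chain that all these heavy chains share (ENSMUSG00000060802, chromosome 2 from 122147686 to 122153083, plus strand), had 567, 539 and 457 CPM in KO libraries 2, 3 and 4, against 1691, 1219.8 and 1275 CPM in WT libraries 1, 3 and 4. KO library 4 was again the lowest and WT library 1 the highest, and B2m was lower in KO (-1.42, SE 0.15, adjusted p = 0.000632). H2-K1, H2-D1, H2-T23 and B2m together took 0.196%, 0.208% and 0.168% of the counts in KO libraries 2, 3 and 4, against 0.634%, 0.460% and 0.481% in WT libraries 1, 3 and 4. The log2 ratio of B2m to the sum of H2-K1 and H2-D1 was -1.26 in KO and -1.48 in WT, a difference of 0.22. All 3 KO libraries lay above all 3 WT libraries in this ratio (exact two-sided permutation p = 0.1, the smallest that 3 against 3 libraries can give).

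The promoters of these genes are shown because the 4 members fell together and because class I promoters are known for a shared module to which RFX, CREB/ATF and NF-Y factors bind with NLRC5. Of the 10 genes, 8 had an entry among the RefSeq promoter sequences used (GRCm38.p6, from 250 bases before to 50 bases after the transcript start), and Tap2 and Nlrc5 had none. In the sequences below, capitals mark matches on either strand to 3 patterns: TGACG followed by 20 bases and ATTGG, the letters of a CREB/ATF half-site and of an inverted CCAAT box; GGG, any 2 bases and TTCCC, the letters of a kappaB-like site; and AANNGAAA, the core letters of an interferon response element. The patterns and the spacing of 20 bases were chosen after the sequences were seen. H2-K1 is read from the minus strand of chr17:34000348-34000597, H2-D1 from the plus strand of chr17:35262844-35263093, B2m from the plus strand of chr2:122147437-122147686 and H2-T23 from the minus strand of chr17:36032702-36032951, each 5′ to 3′.
H2-K1: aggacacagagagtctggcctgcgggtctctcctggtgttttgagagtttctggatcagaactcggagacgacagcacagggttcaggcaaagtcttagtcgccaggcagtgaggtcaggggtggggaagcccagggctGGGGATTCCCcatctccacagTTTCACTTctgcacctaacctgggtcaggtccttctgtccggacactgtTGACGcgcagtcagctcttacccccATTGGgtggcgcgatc
H2-D1: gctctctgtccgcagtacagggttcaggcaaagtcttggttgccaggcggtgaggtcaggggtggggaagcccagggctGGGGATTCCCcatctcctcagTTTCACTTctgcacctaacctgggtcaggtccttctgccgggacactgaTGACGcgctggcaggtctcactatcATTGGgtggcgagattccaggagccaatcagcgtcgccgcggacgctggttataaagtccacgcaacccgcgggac
B2m: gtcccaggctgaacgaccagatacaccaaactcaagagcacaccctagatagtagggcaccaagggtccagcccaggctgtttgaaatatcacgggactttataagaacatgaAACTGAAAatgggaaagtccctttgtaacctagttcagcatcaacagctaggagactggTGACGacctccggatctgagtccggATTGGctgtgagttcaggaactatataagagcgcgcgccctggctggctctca
H2-T23: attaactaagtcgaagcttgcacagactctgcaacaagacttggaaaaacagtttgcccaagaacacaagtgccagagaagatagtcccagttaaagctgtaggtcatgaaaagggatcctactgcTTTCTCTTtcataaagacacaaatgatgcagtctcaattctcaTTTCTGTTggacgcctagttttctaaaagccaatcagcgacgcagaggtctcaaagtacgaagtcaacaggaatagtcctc

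The spaced pair stood in the windows of H2-K1, H2-D1 and B2m, 3 of the 8 genes with a window. In the whole table it stood in 27 of 27025 genes (0.0999%), which describes how rare the letters are and is no test, since the pattern was taken from these genes. The pair ran from position -41 to -12 relative to the transcript start in H2-K1, from -101 to -72 in H2-D1 and from -78 to -49 in B2m. H2-K1 has a second RefSeq start, relative to which the pair ran from -55 to -26, and the first start was used for its sequence and drawing. With the spacing loosened to 18 to 22 bases, the same 3 genes held it, and 0.296% of all genes. The kappaB-like letters stood in H2-K1 and H2-D1 (2.01% of all genes), and the interferon response core in H2-K1, H2-D1, H2-T23 and B2m (26.7% of all genes). Aligned at the pair, the H2-K1 and H2-D1 windows had 176 of 240 bases in common (73.3%), so these windows are not independent examples. Of the 27 genes that held the pair, 22 were tested, of which 7 were lower in KO, 5 were higher and 10 did not pass. Over all genes tested, 28.5% were called lower and 23.9% higher. The 7 include H2-K1, H2-D1 and B2m, from which the pattern was taken with earlier results known, so the count is no test. The other lower genes, named after their values were seen, were H2-M3, a further class I heavy chain, Nrarp, Per1 and Xpnpep1.

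**Figure D2:**
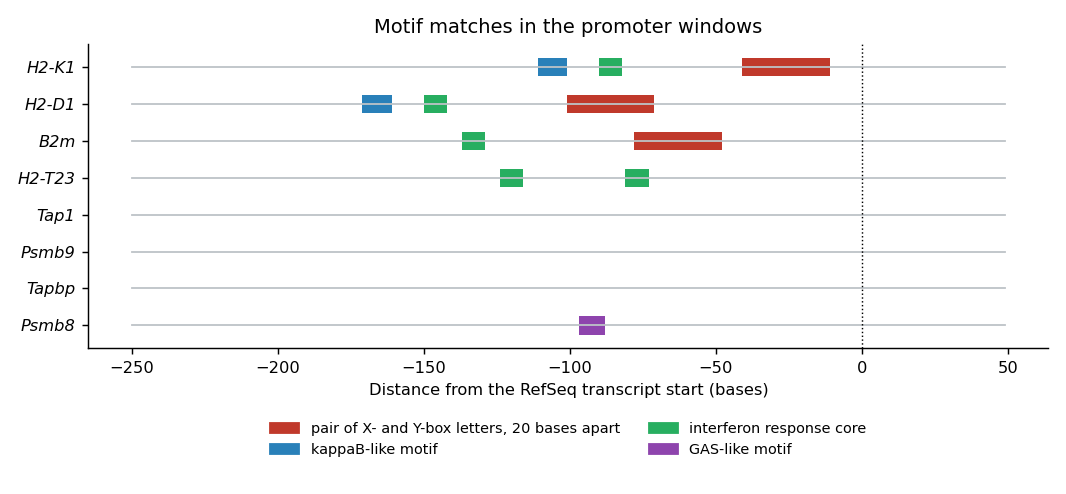
Matches to 4 short patterns in the promoter windows of 8 presentation genes, plotted by distance in bases from the RefSeq transcript start (dotted line). The spaced pair (red) appears in H2-K1, H2-D1 and B2m, and no pattern drawn matched in Tap1, Psmb9 or Tapbp.

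Nlrc5, the class I coactivator, had the largest log2 fold change of the 10 genes, though its difference from the others was not tested. Nlrc5 (ENSMUSG00000074151, chromosome 8 from 94434356 to 94527272, plus strand) had 55.8, 63.0 and 55.9 CPM in KO libraries 2, 3 and 4, against 277, 263 and 192 CPM in WT libraries 1, 3 and 4. The highest KO library, KO 3, was below the lowest WT library, WT 4. Means were 58.2 ± 4.09 CPM in KO and 244 ± 45.8 CPM in WT (SD, n = 3 each), and the log2 fold change was -2.07 (SE 0.15, 95% interval -2.42 to -1.72, adjusted p = 0.000125). Ciita, the class II coactivator of the same protein family, had 2.77, 3.41 and 3.79 CPM in KO libraries 2, 3 and 4, against 8.07, 1.59 and 3.14 CPM in WT libraries 1, 3 and 4. Its groups overlapped and it did not pass (-0.34, SE 0.53, adjusted p = 0.617). The log2 ratio of Nlrc5 to Ciita counts was 4.14 in KO and 6.14 in WT, with all KO libraries below all WT libraries (difference -1.99, exact two-sided permutation p = 0.1, the smallest possible).

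The DNA-bound partners of NLRC5 gave calls in both directions. Of 8 tested, 1 was lower in KO, 2 were higher and 5 did not pass, with a median log2 fold change of 0.20, beside lower calls for 28.5% and higher calls for 23.9% of all genes tested. Rfx5, the DNA-binding subunit of the RFX complex, was higher in KO (0.46, SE 0.07, adjusted p = 0.00180), as was Nfya, an NF-Y subunit (0.47, SE 0.07, adjusted p = 0.00211). Creb1, a CREB/ATF factor, was lower (-0.56, SE 0.08, adjusted p = 0.00185). Rfxap (0.20, adjusted p = 0.0689) and Rfxank (0.21, adjusted p = 0.0759), the other RFX subunits, did not pass. The number of higher partners depended on scaling and was 5 with upper-quartile factors and 6 with library totals alone.

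Of the transport and loading genes, Tap1 and Tapbp were lower in KO and Tap2 did not pass. Tap1, one chain of the peptide transporter (ENSMUSG00000037321, chromosome 17 from 34187553 to 34197225, plus strand), had 136, 137 and 129 CPM in KO libraries 2, 3 and 4, against 360.0, 269 and 278 CPM in WT libraries 1, 3 and 4. The KO libraries lay close together and below all WT libraries, and the log2 fold change was -1.17 (SE 0.12, adjusted p = 0.000527). Tap2, the other chain of the same transporter (ENSMUSG00000024339, chromosome 17 from 34203527 to 34216321, plus strand), had 149.8, 174 and 139 CPM in KO libraries 2, 3 and 4, against 191, 154 and 142 CPM in WT libraries 1, 3 and 4. KO library 3 was higher than WT libraries 3 and 4, so the groups overlapped, and the log2 fold change was -0.07 (SE 0.13, 95% interval -0.38 to 0.24, adjusted p = 0.675). The sign for Tap2 turned under some settings, for instance to 0.05 with library totals alone, and 17 alternatives gave it adjusted p-values of 0.397 to 0.968. Counts of Tap1 relative to Tap2 within a library were 0.871 in KO and 1.86 in WT, a log2 difference of -1.09 with no overlap (exact two-sided permutation p = 0.1, the smallest possible).

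Tapbp, or tapasin, bridges TAP and the empty heavy chain (ENSMUSG00000024308, chromosome 17 from 33915899 to 33929292, plus strand). It had 119, 127 and 110.3 CPM in KO libraries 2, 3 and 4, against 202, 169 and 158 CPM in WT libraries 1, 3 and 4. The groups did not overlap, and its log2 fold change was nearer to 0 than those of the heavy chains (-0.57, SE 0.11, adjusted p = 0.00501). Its relative Tapbpl, the peptide editor TAPBPR, was also lower (-0.71, SE 0.10, adjusted p = 0.00186), and the Tapbp to Tapbpl ratio overlapped between genotypes (log2 difference 0.14, exact two-sided permutation p = 0.4). Among the 5 other loading and trimming genes, Tapbpl included, 3 were lower, 0 were higher and 2 did not pass, with a median log2 fold change of -0.43. Lower calls were made for 28.5% and higher calls for 23.9% of all genes tested. Pdia3, the disulphide isomerase ERp57 of the loading complex, was lower (-0.45, SE 0.10, adjusted p = 0.00818), as was Calr, the chaperone calreticulin (-0.43, SE 0.15, adjusted p = 0.0439). The call of Calr was lost without KO library 2 (adjusted p = 0.0862), KO library 3 (0.0716), KO library 4 (0.139), WT library 1 (0.0696) or WT library 3 (0.0949). Canx, the chaperone calnexin, stood at -0.17 (adjusted p = 0.170) and Erap1, which trims peptides in the endoplasmic reticulum (ERAAP in mouse), at -0.19 (adjusted p = 0.148).

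Of the immunoproteasome subunits, Psmb9 was lower in KO and Psmb8 did not pass. Psmb9, or LMP2 (ENSMUSG00000096727, chromosome 17 from 34181987 to 34187764, minus strand), had 68.5, 65.0 and 65.9 CPM in KO libraries 2, 3 and 4, against 157, 125 and 123 CPM in WT libraries 1, 3 and 4. The 3 KO libraries were nearly equal and every WT library was above them (-1.02, SE 0.11, adjusted p = 0.000535). Psmb8, or LMP7 (ENSMUSG00000024338, chromosome 17 from 34197721 to 34201454, plus strand), had 205, 215 and 199 CPM in KO libraries 2, 3 and 4, against 248, 248 and 221 CPM in WT libraries 1, 3 and 4. Its groups did not overlap but lay close, and it missed the threshold (-0.21, SE 0.08, 95% interval -0.40 to -0.03, adjusted p = 0.0515). The 17 alternatives gave Psmb8 adjusted p-values of 0.0438 to 0.512, and it passed in 4 of them, DESeq2 (0.0438) and leaving out WT library 4 (0.0486) among them. In the authors' deposited table Psmb8 stood at -0.19 with an FDR of 0.0823.

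The constitutive subunits that the immunoproteasome subunits replace did not pass: Psmb5 stood at 0.07 (adjusted p = 0.496), Psmb6 at 0.18 (adjusted p = 0.0899) and Psmb7 at 0.06 (adjusted p = 0.550). Psmb6 was called higher with upper-quartile factors (0.24, adjusted p = 0.0493) and with library totals alone (0.30, adjusted p = 0.0331). The ratio of Psmb9 to Psmb6, which it replaces, was 0.658 in KO and 1.51 in WT, a log2 difference of -1.20. The log2 differences were -0.28 for Psmb8 to Psmb5 and -0.29 for Psmb10 to Psmb7. Each of these 3 ratios was lower in every KO library than in every WT library (exact two-sided permutation p = 0.1, the smallest possible). Over the 8 ratios compared, 6 did not overlap, and none passed after Benjamini-Hochberg adjustment (0.133 for each of the 6). The exact permutation test cannot give a smaller p with 3 against 3 libraries, and no other test was run on the ratios. Of 4 other interferon-inducible proteasome genes, 1 was lower, 0 were higher and 3 did not pass, beside lower calls for 28.5% of all genes tested. The 3 included Psmb10, the MECL-1 subunit (-0.22, SE 0.08, adjusted p = 0.0528), and Psme1, the PA28 alpha activator (-0.05, SE 0.09, adjusted p = 0.695). The lower one was Psme2, the PA28 beta activator (-0.22, SE 0.08, adjusted p = 0.0469), and its call was lost without any one of the 6 libraries (adjusted p 0.0592 without KO library 3 to 0.278 without KO library 2).

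**Figure D3:**
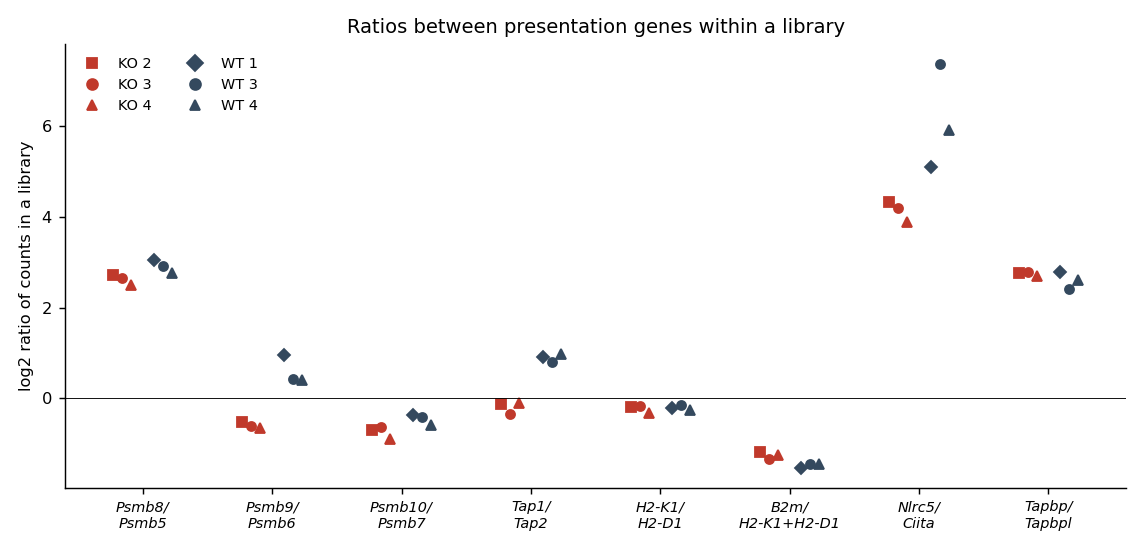
Log2 ratio of the counts of 2 genes within each library, for 8 pairs, with 1 symbol per library (KO red and left, WT dark blue and right). The ratios of Psmb9 to Psmb6, Tap1 to Tap2 and Nlrc5 to Ciita are lower in every KO library than in every WT library. Their group means differ by 1.09 or more on the log2 scale, and single libraries lie closer. The ratios of H2-K1 to H2-D1 and Tapbp to Tapbpl overlap.

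Tap1 and Psmb9 are neighbours that are read in opposite directions from a shared interval, and both were lower in KO, with log2 fold changes of -1.17 for Tap1 and -1.02 for Psmb9. Their RefSeq starts lie at 34187556 for Tap1 and 34187330 for Psmb9 on chromosome 17, with 225 bases between them. That interval is shown because it is the start of both genes. It is read on the plus strand of chr17:34187331-34187555, from the Psmb9 side to the Tap1 side, all in lower case since none of the 3 patterns marked above matched in it.
Interval between Psmb9 and Tap1: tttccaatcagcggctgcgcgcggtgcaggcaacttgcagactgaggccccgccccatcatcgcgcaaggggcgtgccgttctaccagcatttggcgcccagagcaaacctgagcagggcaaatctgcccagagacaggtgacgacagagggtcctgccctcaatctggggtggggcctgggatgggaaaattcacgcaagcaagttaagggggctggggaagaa

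TGACG and ATTGG each matched in the windows of Tap1 and of Psmb9 but not at the spacing of 20 bases. These matches were the same sites of the shared interval, counted from either start. TGACG lay at -86 to -82 from the Tap1 start and at -144 to -140 from the Psmb9 start. ATTGG lay at -222 to -218 and at -8 to -4. TGACG alone matched in 6228 and ATTGG alone in 11096 of the 27025 genes with a window. Psmb8, Tap1 and Psmb9 lie side by side, and 8 of the 10 genes are on chromosome 17, with B2m on chromosome 2 and Nlrc5 on chromosome 8. Tap2, next to Psmb8 in that cluster, did not pass, as Psmb8 did not.

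Per kilobase of the authors' exon length, the order of the 10 levels was similar in both genotypes at its top and its foot. In KO libraries B2m averaged 606 CPM per kb, H2-K1 356 and H2-D1 320.2, and in WT libraries B2m averaged 1622 CPM per kb, H2-K1 1122 and H2-D1 996. H2-K1 and H2-D1 overlapped between libraries in both genotypes. Psmb8 came next, at 127 CPM per kb in KO and 147 in WT. Below it, Tap1, Tap2, H2-T23 and Tapbp overlapped as neighbours in KO, from 40.9 to 45.4 CPM per kb, with Psmb9 just above at 49.2. In WT, Psmb8, H2-T23 (121 CPM per kb), Tap1 (102) and Psmb9 (99.8) overlapped as neighbours, and Tapbp (60.8) overlapped Tap2 (47.2). Nlrc5 was the lowest in both, at 7.69 CPM per kb in KO and 32.2 in WT.

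Most of the other class I heavy chains that could be tested were also lower in KO. Of 22 listed, 18 were in the table and 12 had enough counts to test. Of these 12, 9 were lower in KO, 0 were higher and 3 did not pass, with a median log2 fold change of -1.61. Lower calls were made for 28.5% of all genes tested. H2-Q7, which encodes the Qa-2 antigen, had 8.88, 11.4 and 9.43 CPM in KO libraries 2, 3 and 4, against 320.2, 210.1 and 208 CPM in WT libraries 1, 3 and 4 (-4.63, SE 0.22, adjusted p = 2.07e-05). H2-Q6, a neighbouring gene, had 36.5, 39.7 and 27.5 CPM in KO libraries 2, 3 and 4, against 566, 457 and 397 CPM in WT libraries 1, 3 and 4 (-3.78, SE 0.19, adjusted p = 3.01e-05). Both were low in every KO library, and their values are uncertain as separate genes, since 34.9% of the 50-base stretches of H2-Q7 transcripts and 35.0% of those of H2-Q6 also occur in transcripts of other genes. H2-Q5, given as a polymorphic pseudogene in the authors' table, was lower (-3.06, SE 0.20, adjusted p = 9.15e-05), as was H2-T10, a ligand of some gamma-delta T cell receptors (-1.65, SE 0.11, adjusted p = 0.000102). The same uncertainty holds for H2-Q5 and H2-T10, with 35.4% and 42.9% of their 50-base stretches found in other genes. Mr1 (0.13), Cd1d1 (0.27) and Cd1d2 (0.49), which present metabolites and lipids rather than peptides and were named after their values were seen, did not pass. Cd1d1 was called higher without KO library 4 (adjusted p = 0.0283).

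**Figure D4:**
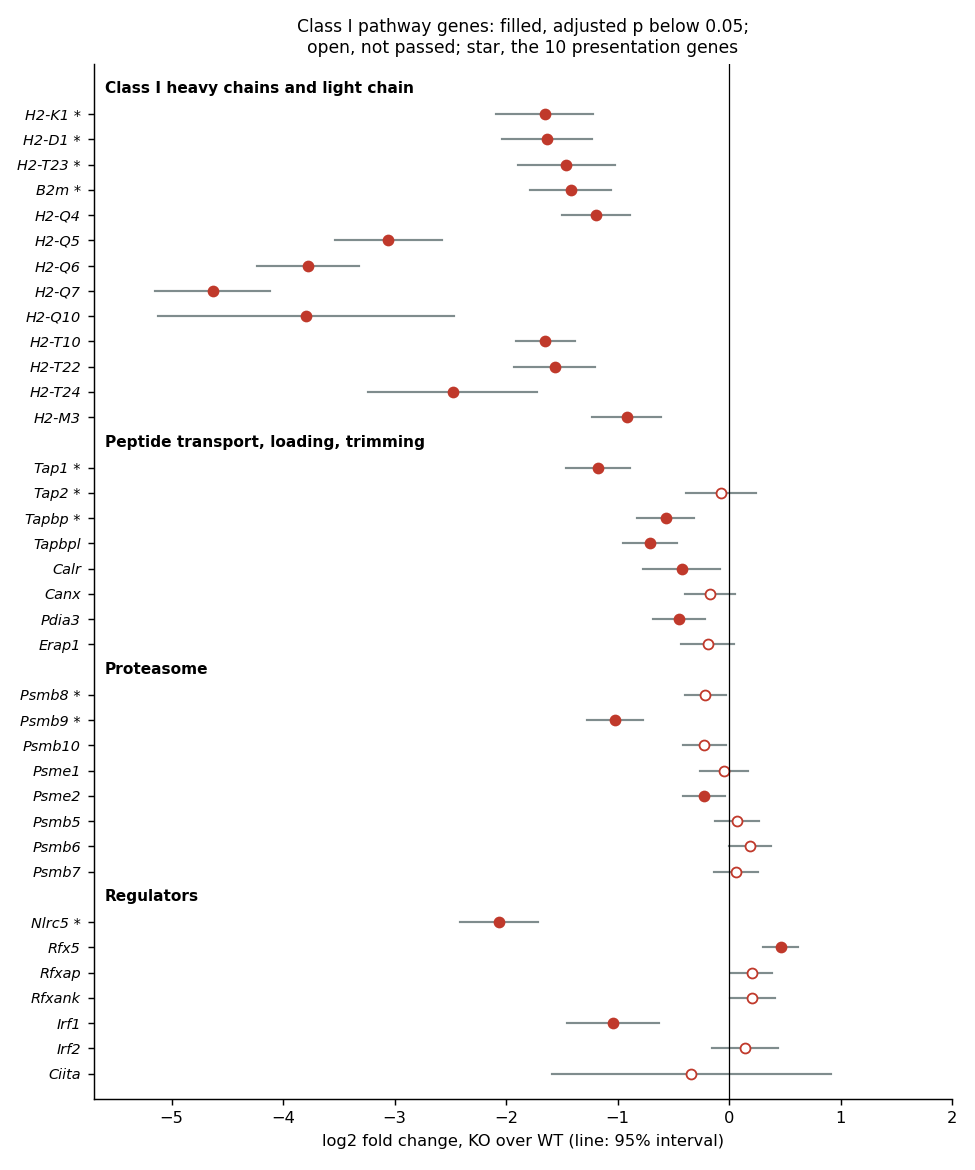
Log2 fold change (KO over WT) of genes of the class I pathway (Mr1, Cd1d1 and Cd1d2 are not drawn) with 95% intervals, where filled points have an adjusted p below 0.05, open points do not, and stars mark the 10 presentation genes. The H2 heavy chains, B2m, Tap1, Psmb9 and Nlrc5 lie at or left of -0.92, while Tap2, Psmb8 and the constitutive proteasome subunits lie near 0.

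Most genes of the core proteasome list did not pass. Besides ring subunits, the list held the activator gene Psme3 and the gene Pomp. Of 13, 2 were lower, 2 were higher and 9 did not pass, with a median of 0.07, beside lower calls for 28.5% and higher calls for 23.9% of all genes tested. With library totals alone, 1 was lower and 4 were higher. Psme3, the nuclear PA28 gamma activator, was higher in KO (0.56, SE 0.10, adjusted p = 0.00332) and Psma6, a ring subunit, was lower (-0.52, SE 0.10, adjusted p = 0.00427). Leaving out any of KO libraries 2, 3 and 4 or WT library 4 left 1 lower and 1 higher, and leaving out WT library 1 left 1 higher. Of 7 cytosolic peptidases, 2 were lower, 3 were higher and 2 did not pass, with a median of 0.03, beside the same shares of all genes tested. Thop1, which destroys peptides in the cytosol (0.93, SE 0.11, adjusted p = 0.000890), Lap3, a leucine aminopeptidase (0.87, SE 0.09, adjusted p = 0.000593), and Tpp2 (0.36, SE 0.08, adjusted p = 0.00928) were higher in KO. The 2 lower calls became 1 without KO library 4, WT library 3 or WT library 4, and 0 without KO library 2 or KO library 3.

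Genes of interferon gamma signalling and other class I activators were mostly lower in KO. Of 15 tested, 10 were lower, 2 were higher and 3 did not pass, with a median of -0.67. Over all genes tested, 28.5% were called lower and 23.9% higher. Without WT library 4, 1 of the listed genes was higher. Irf1, an interferon-induced transcription factor, had 95.3, 102 and 75.8 CPM in KO libraries 2, 3 and 4, against 234, 159.6 and 170.4 CPM in WT libraries 1, 3 and 4 (-1.04, SE 0.17, adjusted p = 0.00312). Its groups did not overlap and WT library 1 was the highest, as for 9 of the 10 presentation genes. Irf2 did not pass (0.14, SE 0.13, adjusted p = 0.377). Ifngr1, a chain of the interferon gamma receptor (-0.94, SE 0.08, adjusted p = 0.000219), and Socs1, an inhibitor that interferon signalling induces (-1.55, SE 0.16, adjusted p = 0.000522), were lower. Ifng itself had 1 count in each KO library, against 26, 5 and 5 counts in WT libraries 1, 3 and 4, too few to pass the filter on low counts.

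Interferon-stimulated genes outside presentation were lower in 19 of 22 tested, beside lower calls for 28.5% of all genes tested. Of the 22, 0 were higher and 3 did not pass, and the median was -1.97. Gbp2, a guanylate-binding protein (-1.56, SE 0.14, adjusted p = 0.000316), and Igtp, an immunity-related GTPase (-1.95, SE 0.20, adjusted p = 0.000475), were among the 19. With the libraries' neutrophil marker level in the model, 0 of the 22 passed in edgeR, beside 298 lower and 187 higher calls over all 14481 genes. With so few calls over all genes, 0 of 22 does not set this list apart. The fold changes in that fit were -1.54 for Gbp2 (adjusted p = 0.067), -1.34 for Igtp (0.167), -1.60 for Ifit1 (0.476) and -1.79 for Oasl2 (0.369). Without the covariate, Ifit1 and Oasl2 stood at -3.83 and -3.80. Ifnb1, Ifnl2, Ifnl3, Ifna2 and Ifna4 had 0 counts in all 6 libraries, where 3 counts correspond to 0.103 to 0.169 CPM. Of the class II genes, which load peptides from outside the cell, 10 were tested and 3 were lower, 0 were higher and 7 did not pass, with a median of -0.41, beside lower calls for 28.5% of all genes tested. The 3 were H2-DMa (-0.58), H2-Oa (-0.59) and H2-Ob (-0.57), which act on class II peptide loading. None of these 3 calls was kept without KO library 2 (adjusted p 0.0572 to 0.0725) or without KO library 4 (0.055 to 0.0663), and leaving out WT library 3 gave 5 lower class II genes, while leaving out WT library 1 gave 1 higher. In the pathway lists with 0 higher calls, 0 genes were higher at an unadjusted p below 0.05 in edgeR and 0 were called higher by DESeq2, while limma-voom with quality weights called 2 class II genes and 1 class I heavy chain higher. Over all 11 pathway lists, 99 genes were tested, of which 50 were lower, 9 were higher and 40 did not pass. The shares over all genes tested were 28.5% lower and 23.9% higher.

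The myeloid markers moved with genotype in the same direction as the presentation genes. H2-K1, H2-D1, H2-T23 and B2m summed to 1921, 1984 and 1600.2 CPM in KO libraries 2, 3 and 4, against 6811, 4723 and 4914 CPM in WT libraries 1, 3 and 4. Every WT library exceeded every KO library in this sum and in the neutrophil markers. Within the WT group, WT library 1 was highest in both sums and WT library 3 lowest in both, and within the KO group KO library 4 was highest in neutrophil markers and lowest in class I chains. Genotype accounts for 82.1% of the variance of the neutrophil marker level, so the level and the genotype cannot be told apart in these 6 libraries. With that level added to the model, 1 of the 10 genes passed, Nlrc5 (-2.13, adjusted p = 0.0264), beside 298 lower and 187 higher calls over all genes. The fold changes in that fit were -1.82 for H2-K1 (adjusted p = 0.0905), -1.61 for H2-D1 (0.106), -1.37 for H2-T23 (0.205), -1.59 for B2m (0.0799), -1.10 for Tap1 (0.124), -0.97 for Psmb9 (0.124), -0.61 for Tapbp (0.337), -0.30 for Psmb8 (0.512) and -0.09 for Tap2. The median of all 10 genes, Nlrc5 included, was -1.24 in that fit, against -1.30 without the covariate. Of the other heavy chains, H2-Q5, H2-Q6, H2-Q7 and H2-T10 passed in that fit. The part of admixed myeloid cells in these results was not tested.

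**Figure D5:**
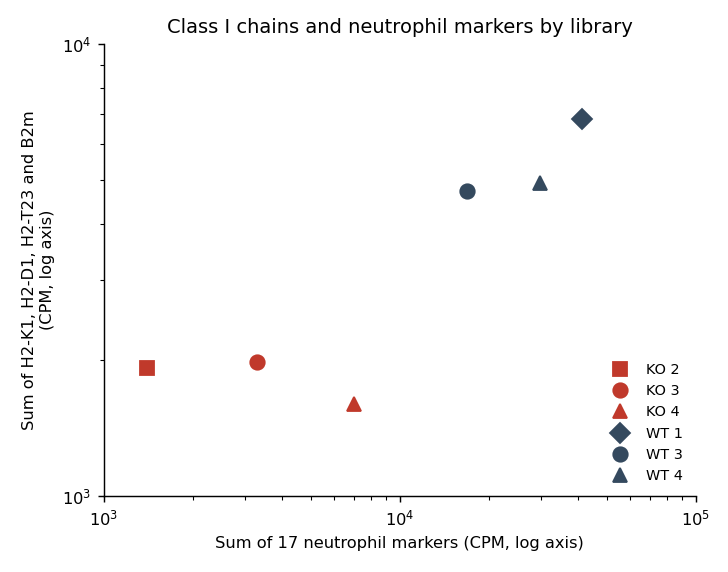
Sum of H2-K1, H2-D1, H2-T23 and B2m against the sum of 17 neutrophil markers in each library, both in TMM-normalised CPM on log axes, with KO in red and WT in dark blue. The KO libraries lie between 1600.2 and 1984 CPM of class I chains over a range of 1397 to 7021 CPM of neutrophil markers, and all WT libraries lie above them and to their right.

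B-lineage markers gave calls in both directions. Of 10 tested, 2 were lower in KO, 4 were higher and 4 did not pass, with a median of 0.14. Over all genes tested, 28.5% were called lower and 23.9% higher. Pax5, the B-lineage transcription factor, had 1398, 1458 and 1242 CPM in KO libraries 2, 3 and 4, against 843, 953 and 921 CPM in WT libraries 1, 3 and 4, and was higher in every KO library (0.59, SE 0.10, adjusted p = 0.00325). Blnk, a B-cell linker protein, was lower (-0.91, SE 0.09, adjusted p = 0.000489), as was Ptprc, the gene of CD45 and B220 (-1.02, SE 0.22, adjusted p = 0.00775), named after its values were seen.

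The sequence that the 10 genes share with other genes differs. No 50-base stretch of B2m or Nlrc5 transcripts occurred in a transcript of another gene, against 8.79% of those of H2-K1, 14.3% of H2-D1 and 29.8% of H2-T23. The shares, matched on either strand, were 21.0% for Tapbp, 12.6% for Tap2, 12.5% for Psmb9, 6.47% for Tap1 and 5.83% for Psmb8. Most of these were with a gene overlapping on the opposite strand: Gm19412 for Tapbp (19.0%), Gm15821 for Tap2 (9.9%), Tap1 for Psmb9 (12.5%) and Gm20496 for Psmb8 (5.83%). Gm19412, Gm15821 and Gm20496 had 67, 45 and 32 counts in all libraries together. For 8 of the 10 genes the authors' counting could divide some reads between genes, in part depending on the use of strand. At 100 bases the shares were 0 for H2-K1, 4.64% for H2-D1 and 7.28% for H2-T23. Tap1 and Psmb9 overlap by 212 bases on opposite strands, and Tapbp overlaps Zbtb22 by 3422 bases on the same strand. Nlrc5 overlaps the long noncoding gene 9330175E14Rik by 748 bases on the opposite strand. The use of strand in the authors' counting is not given in the sources used here, so reads in these stretches cannot be assigned with certainty.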

How the data were processed

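RNA from sorted mouse leukaemia cells was made into libraries with a SMARTer kit from 1.3 ug of total RNA, per the labels' protocols, and counted on genome build GRCm38 (mm10), which comes from the submitters' processing notes. Not given in the sources used here are the aligner, the counter and whether strand was used. The authors deposited whole-number counts per Ensembl gene with positions and exon lengths, per the file headers. Their deposited comparison table gives a log2 fold change and a p-value with FDR from DESeq2, per the file headers. Tables named for FPKM and TPM were not used.

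The 10 genes and all lists were chosen with earlier results of these data known. Counts were filtered with filterByExpr (minimum count 10, minimum total 15), scaled by TMM (factors 0.932 to 1.05) and tested with the quasi-likelihood F test of edgeR 4.0.16 in R 4.3.3 on genotype alone, with Benjamini-Hochberg adjustment over 14481 genes and a threshold of 0.05; the other 41006 genes were not tested. The common biological coefficient of variation was 16.8%. SE is the size of the log2 fold change divided by the square root of F. Ratios were taken of the deposited counts with nothing added and compared with an exact permutation test. The libraries held 17704382 to 29237035 counts each, and a count of 0 was read against a floor of 3 counts, which covers counting error only. The procedure was checked on simulated data in which a small part of the genes changed, balanced between directions. That check does not cover data with 28.5% of genes called lower and 23.9% higher, or libraries that differ in cell content.

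Genes named were the 10, a fixed set of partners and up to 4 genes per list with the smallest p, of which some are not reported here. There were 19 lists of 203 different genes, of which 11 were pathway lists and 7 were cell type marker lists. Alternatives were other scalings and filters, DESeq2 1.42.0, limma 3.58.1, the replicate number as a block, a neutrophil covariate, leaving out myeloid and receptor genes, and leaving out each library. Promoters came from RefSeq (GRCm38.p6). Shared stretches were counted in GENCODE transcripts, on either strand.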

Additional observations from a re-analysis of the deposited data

How the results depend on the processing

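Over 17 alternatives the 10 genes gave 170 values, of which 154 kept their direction and their side of the threshold. With the neutrophil covariate, 1 of the 10 was lower in place of 8, and over all pathway lists 6 were lower in place of 50 and 0 were higher in place of 9; over all genes 298 were lower and 187 higher, in place of 4133 and 3466. The higher pathway genes numbered 14 with upper-quartile factors, 17 with library totals alone and 17 in limma-voom with quality weights; library totals alone moved the median of all genes to 0.11 and the share of lower calls to 43.5%, in place of 54.4%. Tap2 turned direction with library totals alone (0.0455), in limma-voom (0.083), with the replicate block (0.0746), without KO replicate 4 (0.0268) and without WT replicate 1 (0.0561), and ran from -0.159 to 0.0561 when 1 library was left out. The cause was not tested. With the replicate block 8 of the 10 were lower and 2 class II genes, Cd74 and H2-DMb1, were called higher. The numbers pair only 2 samples per genotype, and their deviations correlated at 0.0272 for number 3 and 0.162 for number 4. So few pairs cannot tell whether equal numbers mark a shared mouse, donor or batch.

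Leaving out 1 library at a time gave 8 to 9 lower and 0 higher of the 10 genes, 35 to 49 lower and 7 to 11 higher pathway genes, and 3218 to 4479 lower and 2396 to 3848 higher genes in all. The log2 differences in ratio ran from 0.18 to 0.26 for B2m to H2-K1 plus H2-D1, from -0.0624 to 0.0231 for H2-K1 to H2-D1, from -2.51 to -1.37 for Nlrc5 to Ciita, from -0.35 to -0.21 for Psmb10 to Psmb7, from -0.36 to -0.21 for Psmb8 to Psmb5, from -1.30 to -1.02 for Psmb9 to Psmb6, from -1.14 to -1.02 for Tap1 to Tap2 and from 0.05 to 0.23 for Tapbp to Tapbpl. The ratio of H2-K1 to H2-D1 turned direction without KO replicate 4 (0.0231) and without WT replicate 3 (0.0019). The exact permutation test used for the ratios cannot pass the threshold at 3 against 3 libraries, and no other test was run on them.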

Other observations

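Psmb9 and Psmb8, whose genes lie close together on chromosome 17, were compared after their values were seen, without a test. The log2 ratio of Psmb9 to Psmb8 counts was -1.58, -1.72 and -1.59 in KO libraries 2, 3 and 4, against -0.66, -0.99 and -0.84 in WT libraries 1, 3 and 4, a mean difference of -0.80 with no overlap.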
